A study of Rattus norvegicus with 6 samples.

Results

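The members of this gene set are 8 genes of fatty acid handling and of the response to fasting: Angptl4, Pdk4, Cpt1a, Plin2, Ucp3, Acot1, Ppara and Ppard. They were found by gene symbol in the table of expression values, where they make up 8 of the 17833 genes, and each had 1 row. All 8 passed the filter on low values, a mean of at least 0.1 FPKM (fragments scaled to transcript length and to the size of the library). The genes were chosen by a rule that had the difference between these groups in view, so their levels and differences are given as a description without a test.

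RNA was sequenced from pulmonary veins (PVs) that drain the right upper lung lobe in wild-type SD (Sprague-Dawley) rats, with 3 rats in the BPVB group (bilateral pulmonary vein banding) and 3 in the sham group. Surgery was performed at postnatal day 1 and tissue was taken at postnatal day 21. Both groups had the same cold anesthesia and the same opening of the chest, and only the BPVB group had the veins constricted. By the labels, pups of both groups were nursed by their mothers with free access to food, in a day and night cycle, whereas neither the hour of collection nor the feeding state at collection is given in the sources used here. Libraries held between 23439506 and 29725808 fragments, and all 3 BPVB libraries were deeper than all 3 sham libraries.

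The peroxisome proliferator-activated receptors (PPARs) are nuclear receptors that bind fatty acids and, as dimers with a retinoid X receptor, switch on genes that carry, store and burn fat. During fasting, fatty acids released from fat tissue act on PPAR-alpha and PPAR-delta in liver, heart and muscle, and these organs then turn from glucose to fatty acids. The wall of the rat PV holds a sleeve of atrial-type heart muscle, which burns fatty acids, beside smooth muscle, endothelium and connective tissue. A PV sample can also carry lung and fat tissue that lies around the vessel.

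PPAR dimers read a repeat of the hexamer AGGTCA with 1 base between the copies. Stretches of 250 bases before the start site are shown for Angptl4, Pdk4 and Ucp3, the members whose level differed most between the groups. They are RefSeq sequences of the rat build GRCr8, at chr7:15258682-15258931 on the minus strand for Angptl4, chr4:34568330-34568579 on the minus strand for Pdk4 and chr1:164227660-164227909 on the plus strand for Ucp3. Each reads 5′ to 3′ along the gene, and capitals mark a match to AGGTCA or TATAAA on either strand.
Angptl4: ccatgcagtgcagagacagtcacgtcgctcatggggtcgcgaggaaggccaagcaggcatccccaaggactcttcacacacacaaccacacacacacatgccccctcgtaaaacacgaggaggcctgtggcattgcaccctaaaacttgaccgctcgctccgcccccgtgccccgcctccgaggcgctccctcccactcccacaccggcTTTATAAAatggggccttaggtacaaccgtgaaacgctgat
Pdk4: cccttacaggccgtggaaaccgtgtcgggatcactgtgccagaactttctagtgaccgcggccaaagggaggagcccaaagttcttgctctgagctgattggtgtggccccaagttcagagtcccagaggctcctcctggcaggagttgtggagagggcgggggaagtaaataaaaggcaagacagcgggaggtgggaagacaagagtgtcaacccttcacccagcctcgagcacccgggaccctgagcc
Ucp3: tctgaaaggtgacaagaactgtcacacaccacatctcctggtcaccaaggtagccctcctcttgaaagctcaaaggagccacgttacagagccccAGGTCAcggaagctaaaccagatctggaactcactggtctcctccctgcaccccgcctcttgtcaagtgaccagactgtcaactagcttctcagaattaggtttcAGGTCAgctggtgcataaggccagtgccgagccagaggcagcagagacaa
Sequences of this kind were matched for 7 of the 8 members. Both strands were searched, for AGGTCA, for 2 copies of it in the same direction 1 base apart, for the TATA element TATAAA and for the E-box CACGTG. Ucp3 held AGGTCA at 155 to 150 and at 50 to 45 bases before the start, and no other member held it in this window. Of 33469 rat promoters cut to the same length, 14.1% held AGGTCA. The pair with 1 base between the copies was in 0.0508% of the promoters and in none of those of the members. Angptl4 held TATAAA at 39 to 34 bases before the start, with an overlapping match on the other strand at 41 to 36, and 12.9% of the promoters held this element. Plin2 held CACGTG at 67 to 62 bases before the start of 1 of its 2 entries, against 5.59% of the promoters. A match is a string of letters, and its absence says only that these letters are not in the window.

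Of the 8 members, 3 had a log2 fold change above 1 in the BPVB group, where 2.24% of the 15150 genes tested had one. None of the members was below -1, which 1.04% of the genes were. In 5 members every BPVB library was above every sham library, and in 2 members, the receptors Ppara and Ppard, every BPVB library was below. Over all genes tested these shares were 25.2% and 20.5%, and nothing is read from the comparison because the members were selected on this contrast. The median log2 fold change was 0.49 over the members and 0.02 over all genes tested. Fold changes are on the scale of log2(FPKM + 0.5), which understates the difference of genes with low levels.

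**Figure D1:**
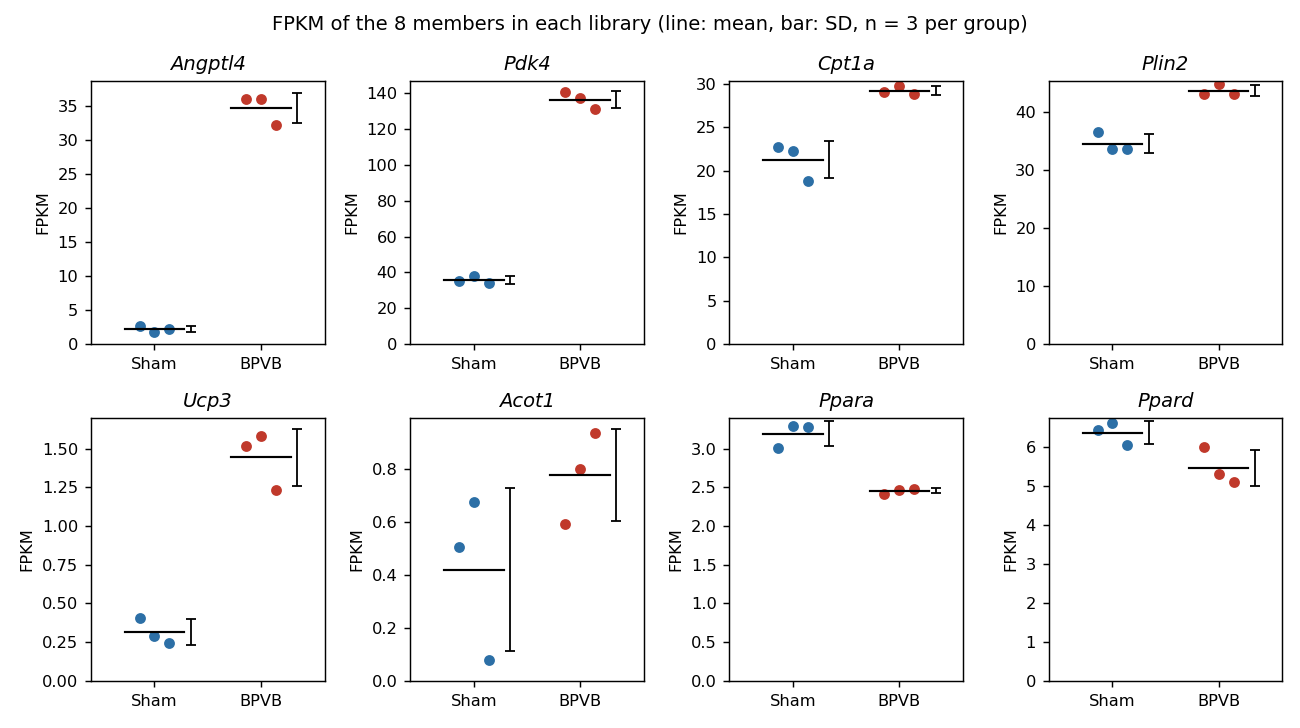
FPKM of the 8 members in each library, with sham libraries in blue and BPVB libraries in red, the group mean as a line and the SD as a bar (n = 3 per group). The groups are apart in every panel but that of Acot1, and BPVB is the lower group for Ppara and Ppard.

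Among the targets, Angptl4 had the largest difference. Angptl4 is a secreted protein that blocks lipoprotein lipase, the enzyme that frees fatty acids from blood lipoproteins. After banding the 3 libraries held it at 36.1, 36.0 and 32.2 FPKM, and after sham surgery at 2.69, 1.77 and 2.24 FPKM. The lowest BPVB library was therefore far above the highest sham library. The mean was 34.8 ± 2.2 FPKM in the BPVB group and 2.23 ± 0.46 FPKM in the sham group (mean ± SD, n = 3 each), a ratio of 15.6 and a log2 fold change of 3.70 with an SE of 0.12. Behind them stood 1924 to 1970 fragments in each BPVB library and 85 to 131 in each sham library. Ranked by FPKM among all genes tested, Angptl4 stood at place 2119 in the BPVB group and at place 10502 in the sham group.

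Pdk4 was the member with the highest FPKM. Pdk4 is a kinase that shuts the pyruvate dehydrogenase complex and so holds back the oxidation of glucose. Banded rats had 141, 137 and 131 FPKM, and sham rats had 35.2, 38.2 and 33.9 FPKM. Both groups were tight, at 136 ± 4.9 and 35.8 ± 2.2 FPKM, and the log2 fold change was 1.92 with an SE of 0.049. The ratio of the means was 3.81. Pdk4 was at place 537 of the genes tested in the BPVB group and at place 2073 in the sham group.

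Ucp3, a mitochondrial carrier of muscle and brown fat that accompanies high fatty acid supply, was low in both groups. It was at 1.51, 1.58 and 1.23 FPKM after banding and at 0.407, 0.287 and 0.247 FPKM after sham surgery. The groups did not overlap, and the ratio of the means, 1.44 ± 0.19 to 0.314 ± 0.083 FPKM, was 4.59. Only 87 to 98 fragments in each BPVB library and 14 to 23 in each sham library stood behind these values. The log2 fold change, 1.26 with an SE of 0.14, was accordingly sensitive to the scale, and it was 2.18 with limma-voom on the recovered fragments.

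Cpt1a and Plin2 differed by less. Cpt1a is the outer-membrane transferase that sets the pace of long-chain fatty acid entry into mitochondria. Banded rats had 29.0, 29.8 and 28.8 FPKM of it and sham rats 22.8, 22.2 and 18.9 FPKM, with a log2 fold change of 0.45 (SE 0.070). Plin2, the coat protein of lipid droplets in most cells, was at 43.2, 44.8 and 43.1 FPKM after banding and at 36.6, 33.6 and 33.7 FPKM after sham surgery, with a log2 fold change of 0.33 (SE 0.045). For both genes the groups were separate, and the ratios of the means were 1.37 for Cpt1a and 1.26 for Plin2.

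Acot1, a thioesterase of the cytosol that splits fatty acyl-CoA, was the one member whose groups overlapped. Its BPVB libraries were at 0.593, 0.801 and 0.937 FPKM and its sham libraries at 0.506, 0.675 and 0.0798 FPKM. The third sham library held 3 fragments of it, against 19 and 25 in the other sham libraries and 25 to 44 in the BPVB libraries. The log2 fold change of 0.53 (SE 0.26) was 0.22 without that library and 1.28 with limma-voom on the recovered fragments. Acot1 has close relatives (Acot2 to Acot5), and whether reads were shared between them in the counting was not tested, so its count is taken as uncertain.

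The receptors were the lower genes after banding. PPAR-alpha (Ppara) drives the fasting program in liver and heart, and PPAR-delta (Ppard) does so in muscle and is present in most tissues. For Ppara, banded rats had 2.42, 2.47 and 2.48 FPKM and sham rats 3.01, 3.29 and 3.28 FPKM, a log2 fold change of -0.32 (SE 0.096). Ppard was at 5.99, 5.32 and 5.10 FPKM after banding and at 6.45, 6.63 and 6.05 FPKM after sham surgery, a log2 fold change of -0.21 (SE 0.087). The ratios of the means were 0.770 and 0.858, and for Ppard the highest BPVB library lay just under the lowest sham library. In bulk tissue, fewer cells of a type and less RNA per cell cannot be told apart.

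By FPKM, which is per length of transcript, the members of the BPVB group stood in the order Pdk4, Plin2, Angptl4, Cpt1a, Ppard, Ppara, Ucp3 and Acot1, and no neighbours in this order overlapped. In the sham group the order was Pdk4, Plin2, Cpt1a, Ppard, Ppara, Angptl4, Acot1 and Ucp3. There Pdk4 overlapped with Plin2 and Acot1 with Ucp3, whereas the other neighbours were separate. Angptl4 was thus below both receptors in the sham group and above both in the BPVB group. Within groups, the coefficient of variation of FPKM was between 1.37% (Ppara) and 22.3% (Acot1) in the BPVB group and between 4.64% (Ppard) and 73.0% (Acot1) in the sham group.

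Set against the other genes of their families, the members took different shares. Pdk4 made up 56.6% ± 1.0 of the FPKM of the 4 pyruvate dehydrogenase kinases in the BPVB group and 24.0% ± 1.1 in the sham group (mean ± SD, n = 3 each). Pdk2, the leading kinase of the sham group, fell from 94.8 ± 2.5 to 83.7 ± 1.7 FPKM (adjusted p = 0.0036, limma). Pdk1 rose from 17.1 ± 0.24 to 19.2 ± 0.60 FPKM (adjusted p = 0.034), and Pdk3 was at 1.33 ± 0.15 and 1.47 ± 0.092 FPKM without passing the test (adjusted p = 0.539). The call of Pdk1 was lost in 8 of the 15 alternatives, among them 5 of the 6 that leave out 1 library (all but BPVB library 3), with adjusted p values from 0.0586 to 0.101.

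Angptl4 took 55.0% ± 0.97 of the FPKM of the 7 angiopoietin-like genes in the BPVB group and 3.90% ± 0.87 in the sham group. The sum over this family differed little, at 63.2 ± 3.0 and 57.4 ± 2.9 FPKM. Its relatives Angptl1 and Angptl2 fell, by 1.15 and 1.14 on the log2 scale (adjusted p = 7.82e-05 and 1.47e-06). Angptl2 went from 40.9 ± 2.8 to 18.3 ± 0.56 FPKM and Angptl1 from 13.8 ± 0.039 to 6.0 ± 1.1 FPKM. Angptl7, by contrast, rose from 0.130 ± 0.087 to 3.85 ± 0.48 FPKM (log2 fold change 2.79, adjusted p = 2.42e-06).

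Ucp3 was a minor member of its family, at 0.336% ± 0.041 of the FPKM of Ucp1, Ucp2 and Ucp3 in the BPVB group and 0.124% ± 0.031 in the sham group. Ucp2, which is found in many tissues and in macrophages, rose from 246 ± 4.6 to 424 ± 14 FPKM (log2 fold change 0.78, adjusted p = 3.65e-07). Ucp1, the uncoupling protein of brown fat, fell from 5.58 ± 0.94 to 3.32 ± 0.26 FPKM (log2 fold change -0.66, adjusted p = 0.00403).

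The shares of the remaining members moved by less than those of Pdk4 and Angptl4. Cpt1a made up 26.4% ± 0.94 of the carnitine palmitoyltransferases 1 in the BPVB group and 22.9% ± 2.2 in the sham group, beside Cpt1b, the form of heart and muscle, which rose from 69.1 ± 2.1 to 78.8 ± 2.7 FPKM (adjusted p = 0.00581). Plin2 made up 42.5% ± 2.3 and 44.0% ± 0.97 of the perilipins. Acot1 made up 2.61% ± 0.56 of Acot1 to Acot5 in the BPVB group and 1.78% ± 1.3 in the sham group. In this family the mitochondrial Acot2 led at 20.3 ± 0.094 and 15.2 ± 0.31 FPKM and rose (adjusted p = 0.000226), Acot3 was at 8.49 ± 0.25 and 8.13 ± 0.54 FPKM (adjusted p = 0.572), and Acot4 and Acot5 were under the filter on low values.

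Of the summed FPKM of the 3 PPARs, Ppara gave 16.3% ± 0.87 in the BPVB group and 19.6% ± 0.19 in the sham group, and Ppard 36.2% ± 1.7 and 39.2% ± 2.9. The rest was Pparg, the receptor of fat cells and macrophages, at 47.6% ± 0.92 and 41.2% ± 2.9. Pparg itself was at 7.18 ± 0.23 and 6.72 ± 0.73 FPKM and did not pass the test (adjusted p = 0.465). The sum over the 3 receptors was 15.1 ± 0.63 and 16.3 ± 0.72 FPKM.

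**Figure D2:**
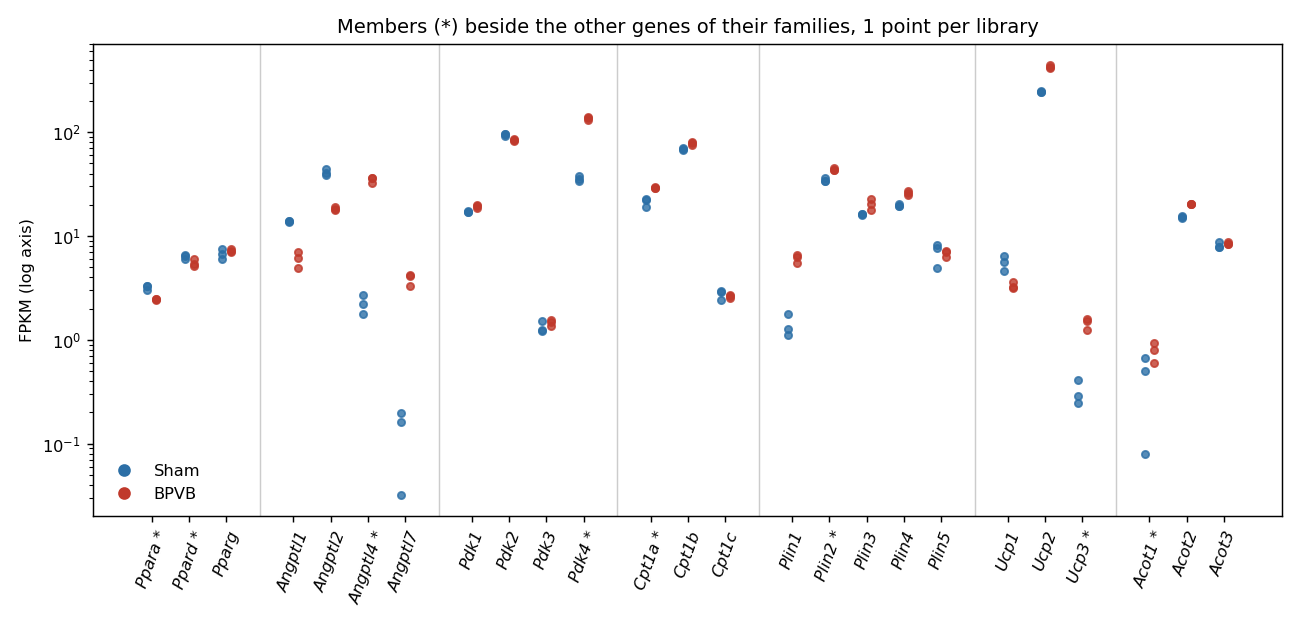
FPKM on a log axis of the members (marked by an asterisk) and of other genes of their families, 1 point per library, with sham in blue and BPVB in red. Angptl4 lies below Angptl1 and Angptl2 in the sham group and above both in the BPVB group, and Pdk4 passes Pdk2.

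The wider PPAR pathway and the paralogs of the members were described with 88 further genes in 7 lists written from textbook knowledge. Of these, 84 passed the filter, 30 rose and 15 fell at an adjusted p under 0.05 (limma, Benjamini-Hochberg over all genes tested), and 39 did not pass. Over all genes tested, 17.2% rose and 14.3% fell, a balance that turned with median of ratios (2362 and 2454 genes) and with quantile normalization (2355 and 2433 genes). With TPM the balance moved the other way (2999 and 1888 genes). The median log2 fold change of the 84 genes was 0.08, beside 0.02 over all genes tested. Among these genes 6 were above 1 and 2 below -1 on the log2 scale. The list of paralogs holds 18 genes, such as Angptl1 and Angptl2, that are there as relatives of the members. Of its 14 tested genes, 5 rose and 5 fell, and it holds 1 of the genes above 1 and both of those below -1.

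The lists differed in how many of their genes passed. Of 16 enzymes of mitochondrial fatty acid oxidation, the pathway that Cpt1a feeds, 8 rose and 1 fell, with a median of 0.08. Decr1, needed for unsaturated fatty acids, rose from 85.2 ± 1.8 to 118 ± 4.3 FPKM (log2 fold change 0.47, adjusted p = 1.91e-05), and Hadha and Hadhb, the subunits of the trifunctional protein, rose by 0.39 each (adjusted p = 2e-05 and 4.59e-05). Etfb, an electron carrier subunit, fell from 229 ± 8.3 to 168 ± 11 FPKM (adjusted p = 0.000153). Of 10 peroxisomal genes 4 rose and none fell, with a median of 0.22. Ech1 rose from 133 ± 0.40 to 216 ± 4.7 FPKM (adjusted p = 3.78e-07).

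Fatty acid uptake, binding and activation was mixed, with 3 of 13 genes higher and 3 lower and a median of 0.07. Cd36, a fatty acid receptor of muscle, fat, macrophages and endothelium, rose from 9.35 ± 0.52 to 21.7 ± 7.5 FPKM (log2 fold change 1.12, adjusted p = 0.00206). Lpl, the enzyme that Angptl4 blocks, fell from 355 ± 5.8 to 286 ± 5.3 FPKM (log2 fold change -0.31, adjusted p = 3.17e-05) and was picked out after its values were seen. Gpihbp1, which holds this lipase on capillary endothelium, fell from 54.1 ± 2.0 to 41.1 ± 2.1 FPKM (adjusted p = 0.000313).

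Around Plin2, 6 of 12 genes of lipid droplets and lipolysis rose and 2 fell, with a median of 0.32. Pnpla2, the first lipase of the droplet, rose from 68.4 ± 3.5 to 123 ± 3.1 FPKM (log2 fold change 0.85, adjusted p = 1.48e-06), and G0s2, its inhibitor, from 14.9 ± 1.4 to 31.3 ± 1.6 FPKM (log2 fold change 1.05, adjusted p = 9.49e-06). Plin1 and Cidec, droplet proteins of white fat cells, rose by 1.83 and 1.29 on the log2 scale (adjusted p = 2.36e-05 and 0.000125).

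Of 6 genes of ketone bodies and the fasting hormone Fgf21, 1 rose and 3 fell, with a median of -0.27. Oxct1 and Acat1, which use ketone bodies, fell by 0.54 and 0.34 on the log2 scale (adjusted p = 1.17e-06 and 2.61e-05). Fgf21 was at 0.519 ± 0.36 and 0.628 ± 0.15 FPKM and did not pass the test (adjusted p = 0.60), and its sign turned without BPVB library 3.

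Of the 13 partners and co-regulators of the receptors, 3 rose and 1 fell, with a median of 0.09. The coactivator Ppargc1a fell from 7.26 ± 0.40 to 5.45 ± 0.12 FPKM (log2 fold change -0.38, adjusted p = 0.00493), and the coactivator Ncoa2 rose from 3.37 ± 0.093 to 5.15 ± 0.41 FPKM (adjusted p = 0.00205). The retinoid X receptors Rxra, Rxrb and Rxrg did not pass the test (adjusted p = 0.207, 0.138 and 0.397). Lpin1 and the corepressor Ncor1 rose by 0.22 and 0.18 (adjusted p = 0.0235 and 0.0415). Ncor1 lost the call without any 1 of the 6 libraries, with adjusted p from 0.056 to 0.122, and Lpin1 lost it without BPVB library 1 or 3 or sham library 1 or 2, with adjusted p from 0.0648 to 0.0745.

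**Figure D3:**
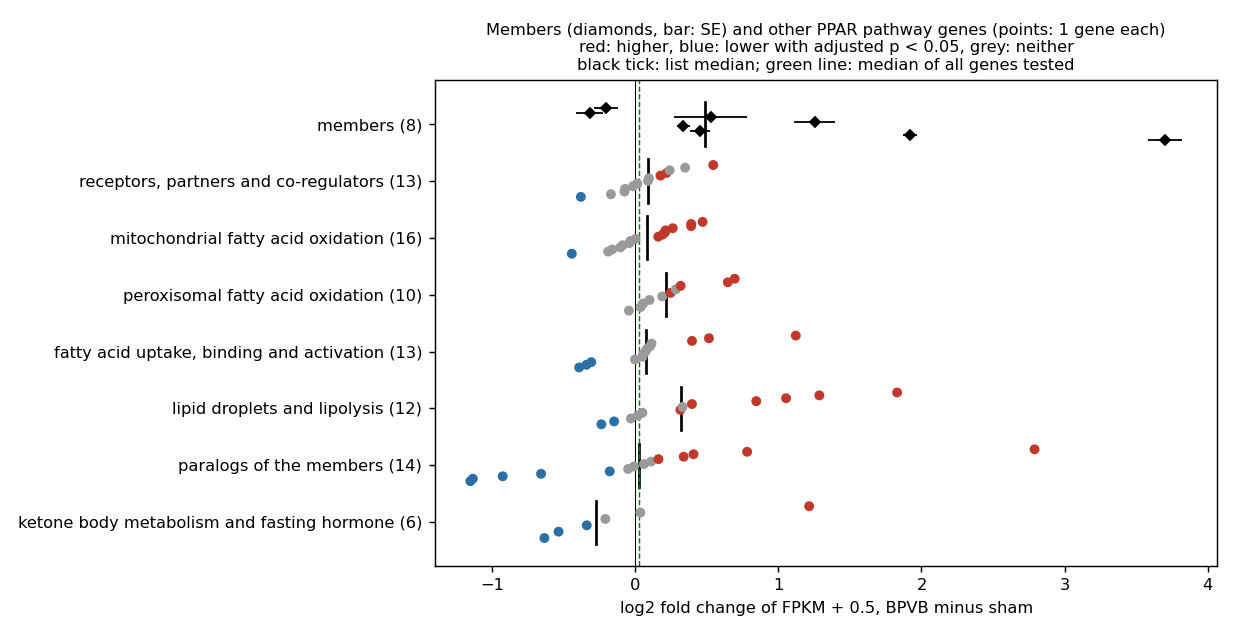
Log2 fold change of FPKM + 0.5 between BPVB and sham for the members (diamonds, bar: SE) and for the tested genes of the 7 other lists, 1 of them of paralogs (1 point per gene), red where higher and blue where lower at an adjusted p under 0.05. List medians (black ticks) lie between -0.27 and 0.32 beside 0.49 for the members, and the green line is the median of all genes tested at 0.02.

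The annotation in the deposited table names a PPAR signaling pathway, a list taken up after the table was seen. Beside the members it holds 76 genes, of which 65 passed the filter, 22 rose and 8 fell, with a median of 0.09, where 17.2% of all genes tested rose and 14.3% fell. Of the 76 genes, 28 are also among the 88 above, and these hold 12 of the 30 calls. In the gene ontology terms of the table, 5 members (Cpt1a, Ucp3, Acot1, Ppara and Ppard) shared "fatty acid metabolic process", a term of 78 genes. Angptl4, Ucp3 and Ppara shared "response to hypoxia", a term of 273 genes.

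Markers of other cells differed between the groups in both directions. For comparison with the counts of markers below, 17.2% of all genes tested rose and 14.3% fell. Fat cells, which express Angptl4, Plin2 and Pdk4, were checked with 8 white adipocyte markers, of which 6 rose and 1 fell, and they summed to 93.0 to 99.9 FPKM after banding and to 47.6 to 49.1 FPKM after sham surgery. Adiponectin (Adipoq) was at 18.8 ± 0.80 and 6.31 ± 1.7 FPKM. Plin1, Cidec and Lipe are on both this list and that of lipid droplets. Of 6 brown adipocyte markers, 4 were tested and 3 fell, with sums of 878 to 1039 and 1405 to 1517 FPKM. These sums were mostly Cox8b (857 ± 78 and 1339 ± 63 FPKM), which rodent heart muscle also expresses, and Ucp1 was at the low level given above. Ucp1 is also on the list of paralogs, and Cidea, another of these markers that fell, is also on that of lipid droplets.

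Alveolar type 2 cells of the lung store lipid for surfactant, and all 8 of their markers rose, from a summed level of 61.5 to 63.0 FPKM in the sham libraries to 552 to 598 FPKM in the BPVB libraries. Of 10 macrophage markers 9 were tested and 8 rose, with sums of 682 to 703 FPKM after banding and 229 to 238 FPKM after sham surgery. Most of that sum was Lyz2 (592 ± 16 and 163 ± 3.8 FPKM), and the median log2 fold change of the list was 0.64. Of 10 atrial cardiomyocyte markers 7 fell and 2 rose, and they summed to 16707 to 17157 FPKM after banding and to 22575 to 23007 FPKM after sham surgery. Endothelial markers fell in 4 of 6 cases and smooth muscle markers in 4 of 6 with 1 higher, and both sets were expressed in all libraries.

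Skeletal muscle, another source of Ucp3, was checked with 11 markers, of which 7 were tested and only Acta1 rose. Its summed level of 153 to 160 and 62.1 to 63.7 FPKM was mostly Acta1, which heart muscle can also express, and Myh1 was at 0.0192 ± 0.028 and 0.0260 ± 0.018 FPKM. Of 6 hepatocyte markers 3 rose and none fell, with sums of 123 to 129 and 74.8 to 78.8 FPKM. No marker with a row was at 0 in all 6 libraries. The part of any of these cells in the levels of the members was not tested.

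Targets of other regulators known to act on members were counted in the same way, beside the 17.2% of all genes tested that rose and the 14.3% that fell. Clock genes differed widely, with 4 of 11 higher and 6 lower. Dbp was at 12.0 ± 0.33 and 140 ± 1.8 FPKM in the BPVB and sham groups (log2 fold change -3.49, adjusted p = 3.72e-10) and Arntl at 16.3 ± 0.87 and 1.72 ± 0.16 FPKM (log2 fold change 2.91, adjusted p = 8.08e-08). Of 7 glucocorticoid targets 1 rose and 5 fell, with a median of -0.34, and of 9 tested hypoxia targets 4 rose and 3 fell, with a median of -0.09. Per1, which fell, is counted among both the clock genes and the glucocorticoid targets. The part of the hour of collection, of feeding, of glucocorticoids and of hypoxia in the levels of Angptl4, Pdk4 and the other members was not tested.

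**Figure D4:**
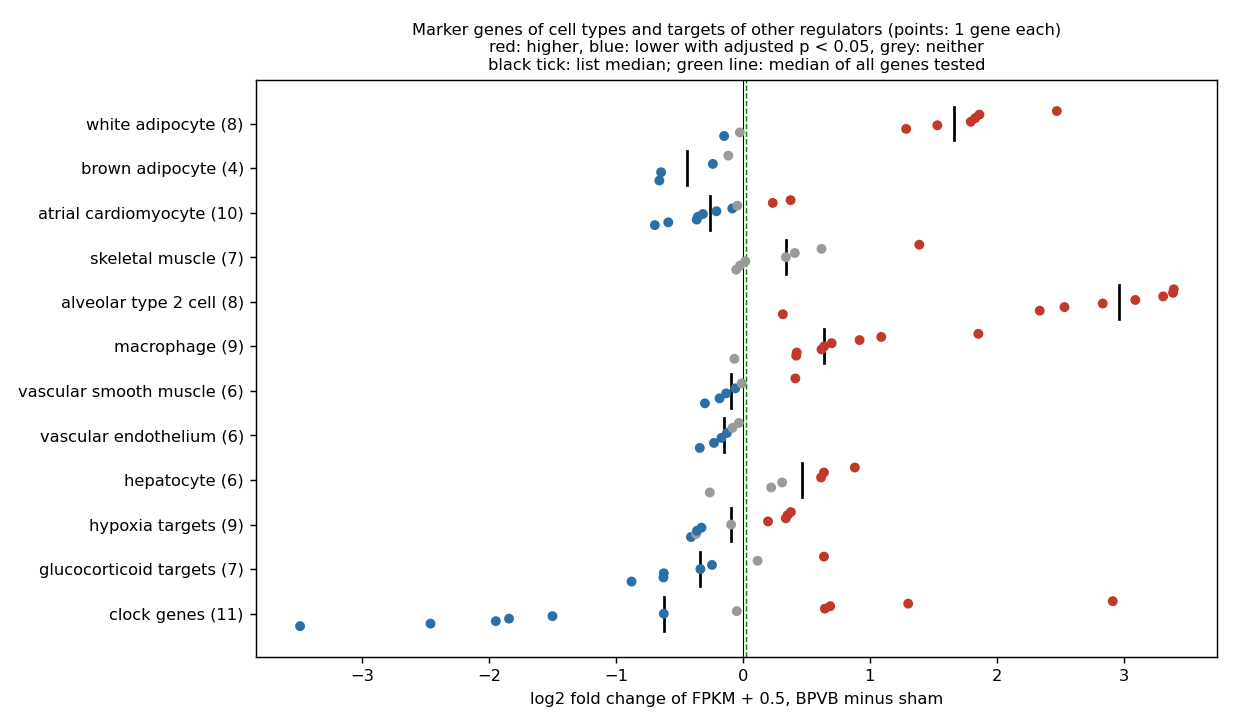
Log2 fold change of FPKM + 0.5 between BPVB and sham for markers of 9 cell types and for targets of 3 other regulators, 1 point per tested gene, red where higher and blue where lower at an adjusted p under 0.05, with list medians as black ticks. The alveolar type 2 markers (median 2.96) and the white adipocyte markers (median 1.66) lie to the right, and clock genes lie on both sides.

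For each member with a mean of at least 1 FPKM in the 6 libraries, the genes with the most similar pattern were taken by Pearson's r of log2(FPKM + 0.5), among genes whose log2 fold change was within 0.5 of its own. Ucp3 and Acot1 were under that level. All 6 points of each correlation come from the same 2 groups, so that r follows mainly the gap between the groups. Only 7 genes had a difference close to that of Angptl4, and the most similar were Slc34a2 (r = 0.998), Sftpb (r = 0.998) and Sftpc (r = 0.995), all of them on the list of alveolar type 2 markers. Slc34a2 was at 20.3 FPKM after banding and 1.49 FPKM after sham surgery.

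For Pdk4 there were 95 such genes, led by Nupr1, Lrrc2 and Rcan1 (r = 0.999 each). Cpt1a was nearest to Ifitm1, Marchf3 and Il17b (r = 0.996 each), and Plin2 to Otulin (r = 0.997), LOC102555439 and Rad54l2 (r = 0.996 each). Ppara was nearest to Cntnap1, to the heart myosin gene Myh6 and to Ndufb11 (r = 0.998, 0.998 and 0.996). Ppard was nearest to Stk39, Pank4 and Abcc5 (r = 0.990, 0.990 and 0.989). The candidates for these 4 members numbered between 7139 and 9972, since many genes differ little between the groups.

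The direction of the difference was the same under all 15 alternatives for 6 members and under the 14 that gave a value for Ucp3 and Acot1, which fall under a filter of 1 FPKM. Leaving out each library in turn gave 3.58 to 3.82 for Angptl4, 1.88 to 1.96 for Pdk4, 1.196 to 1.336 for Ucp3, 0.37 to 0.50 for Cpt1a and 0.31 to 0.37 for Plin2 on the log2 scale. For the receptors it gave -0.36 to -0.30 (Ppara) and -0.27 to -0.16 (Ppard). With a pseudocount of 0.1, Ucp3 was at 1.91 and Acot1, the member with the fewest fragments, at 0.98.

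**Figure D5:**
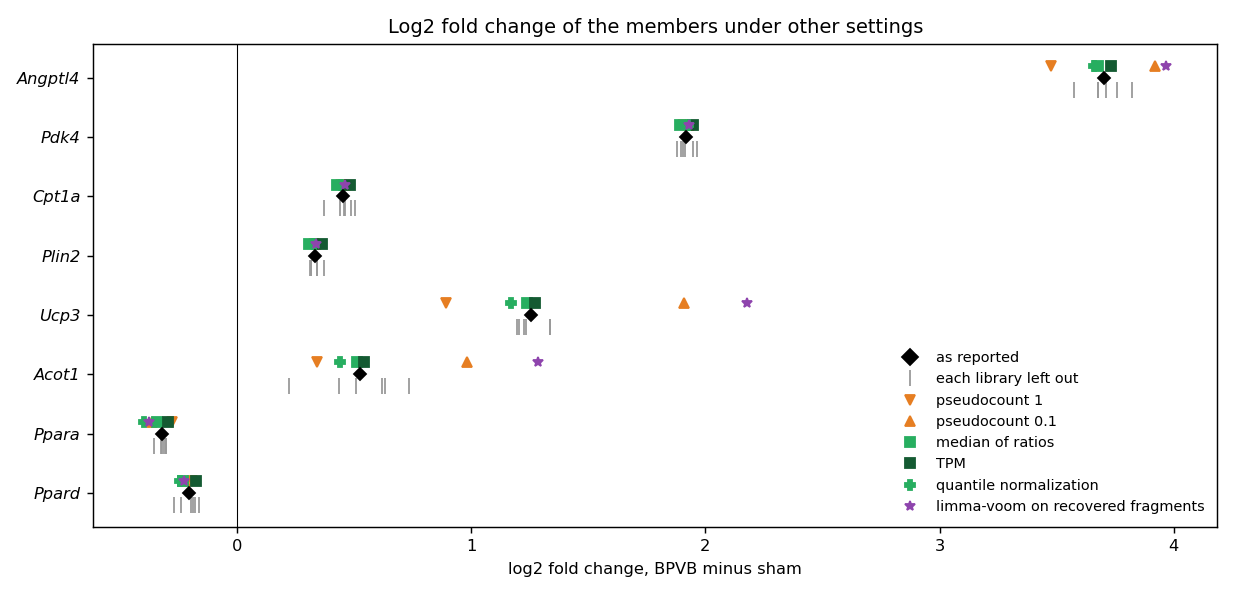
Log2 fold change of each member as reported (diamonds), with each library left out (grey ticks) and under other pseudocounts, scalings and limma-voom on recovered fragments. No point crosses 0, and Ucp3 runs from 0.89 with a pseudocount of 1 to 2.18 with limma-voom.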

How the data were processed

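The authors sequenced RNA from the PVs of 3 BPVB and 3 sham rats and deposited a table of FPKM, 1 column for each rat, with gene ontology and pathway names. The paper describes trimming with fastp, mapping with HISAT, counting with HTSeq-count and a VAHTS library kit. The submitters' processing notes name HISAT2 2.0.5, StringTie 1.3.3b, featureCounts 1.5.0-p3 and DESeq2 1.20.0, and the labels name an NEBNext kit. The genome build is not given in the sources used here, and neither is whether counting used strand. Groups came from the labels and columns were matched by name, with 0 columns of per-sample values not used.

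Whole fragments were recovered from the ratios of each gene's values for 100.00% of the genes (tolerance 1e-06), and library totals were 23439506 to 29725808 fragments. The groups were compared over 15150 genes with a mean of at least 0.1 FPKM by limma 3.58.1 in R 4.3.3 (lmFit, eBayes with trend) on log2(FPKM + 0.5), two-sided, with Benjamini-Hochberg adjustment and a threshold of 0.05. A count model was planned only as an alternative (limma-voom, at least 10 fragments in all), since the deposited unit is FPKM. The fit and the recovery were tested on simulated data. Python 3.11.15, numpy 2.4.6, pandas 2.3.3 and matplotlib 3.10.9 were used for the rest.

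The members and all lists were chosen with earlier results of these data known. Of each pathway list, the 4 genes with the largest absolute log2 fold change among those with an adjusted p under 0.05, a mean of at least 1 FPKM and groups that do not overlap could be named, plus nuclear receptors and the closest paralogs. Some genes that this rule names are not reported here. For each member of at least 1 FPKM, the 3 genes with the highest r were named. Lpl, Fgf21, Adipoq, Acta1, Myh1, Cox8b, Lyz2, Dbp and Arntl fall outside this rule and were picked after their values were seen. Alternatives were pseudocounts of 1 and 0.1, no filter and a filter of 1 FPKM, median of ratios, TPM and quantile scaling, the replicate number as a block, limma-voom, and each of the 6 libraries left out. Libraries are from separate rats, and no label ties a BPVB rat to a sham rat.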

Additional observations from a re-analysis of the deposited data

How the results depend on the processing

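No member changed direction under any alternative that gave a value for it. Of 118 values of the members under alternatives, 108 stayed within 1 SD of the spread between libraries and 10 moved by more, of Angptl4, Ucp3, Acot1 and Ppara. The number of members with an absolute log2 fold change above 1 was 3, and 2 to 4 under the alternatives. The count of DEGs (adjusted p under 0.05 and absolute log2 fold change above 1) was 496, against 325 with a pseudocount of 1, 901 with a pseudocount of 0.1 and 1122 with limma-voom. At an adjusted p under 0.05, 2609 and 2587 genes rose with these pseudocounts, against 2605 as reported. In the same way 2179 and 2155 fell, against 2170. The pseudocount thus moved the count of DEGs mainly through the cut on the fold change. Why limma-voom gave more DEGs was not tested. Among the other named genes 2 values turned, neither past the test. Pdk3 was at 0.11 as reported and at -0.0089 under quantile normalization (adjusted p = 0.965), and Fgf21 was at -0.21 as reported, at 0.1277 without BPVB library 3 and at -0.3837 without BPVB library 2. Pex11a lost its call without BPVB library 1 or 2 (adjusted p = 0.0657 and 0.0601).

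With the replicate number as a block, 2466 genes rose and 2073 fell, against 2605 and 2170 without it, and of the named genes Ncor1 (adjusted p = 0.0802) and Pdk1 (adjusted p = 0.0586) lost the call. Each library correlated best with its own number in its deviations from the group means, but only at r of 0.014 to 0.025, and the labels give the libraries no more than a shared number, so the replicate block was not used for the reported values. Depth limits Ucp3 and Acot1, which had at most 98 and 44 fragments in a library. With 3 libraries a group, p-values rest on a spread that limma borrows across genes.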
